A study of Homo sapiens with 18 samples.

Results

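Uracil removal and base excision repair were followed through 10 genes chosen by name, DUT, UNG, SMUG1, TDG, MBD4, APEX1, PARP1, XRCC1, POLB and LIG3. They were found on the array through the RefSeq accession that each probe carries, and all 10 had at least 1 probe, 14 probes in all, out of 19720 genes that could be named in this way. DUT, SMUG1, TDG and PARP1 had 2 probes each, and a gene with 2 probes is represented by its brighter probe. The 14 probes lay well above background on all 18 arrays, so the values of these 10 genes are measured levels.

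Base excision repair removes single damaged or foreign bases from DNA. dUTPase keeps uracil out by destroying dUTP, a DNA glycosylase cuts a wrong base from the sugar, the AP endonuclease opens the strand at the empty site, and a polymerase and a ligase with their scaffold and sensor proteins close the gap. The pathway is known for its link to 5-fluorouracil (5-FU), an inhibitor of thymidylate synthase in its active form, because fluorouracil and uracil that reach DNA are substrates of several of these glycosylases.

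The samples were cells of Huh1 and Huh7, established hepatocellular carcinoma (HCC) cell lines, sorted for the surface protein EpCAM with which the study marks tumor-initiating cells. In each line 1 group was a control, 1 was treated with disulfiram (DSF, 0.1 µM), a drug for alcohol dependence, and 1 with 5-FU (1 µM), both for 48 hours. Each of the 6 groups had 3 one-color arrays from independent experiments, 18 in all, and the study asked how the actions of DSF and 5-FU on these cells differ. Copper chloride is named beside DSF in the methods, which leave the treatment of the controls open, so a copper effect and a DSF effect cannot be told apart. In sorted bulk cells, fewer cells of a type and less RNA per cell cannot be told apart either. Levels are given as log2 of the spot signal relative to the 75th percentile of the same array, and a difference of levels is a log2 difference. A gene was called higher or lower when the adjusted p of limma, fitted over all 29894 tested probes, was under 0.05.

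The cells carried the label's markers. All 8 hepatocyte and hepatoma markers lay above background on the 18 arrays, the level of AFP, the fetal liver protein, ran from 4.36 to 8.41 over the group means, and that of EPCAM, the gene of the sort marker, from 1.96 to 5.74. After DSF, EPCAM was called lower in both lines (-0.66 in Huh1 and -0.50 in Huh7), and so were 7 of the 8 hepatocyte markers in Huh1 (median -0.74) and 4 in Huh7 (median -0.22), and 0 were called higher. Whether these shifts have a role in the DSF results below was not tested. Of the markers of other cells, the summed level of 5 fibroblast and stellate genes was -0.99 to -0.90 in the Huh7 controls and 1.60 to 1.68 after 5-FU in Huh7, with LUM above background on all arrays and COL1A1 on 11 arrays. The summed level of 4 leukocyte genes was 0.33 to 0.39 in the Huh7 controls and 1.27 to 1.93 after 5-FU in Huh7. There CD68 was called higher (1.59), 1 of the 4 was called lower, and the median difference of the 4 was -0.31. In Huh1 the fibroblast and stellate sum was -0.04 to 0.62 in the controls and 0.49 to 1.15 after 5-FU. The leukocyte sum in Huh1 was 1.37 to 2.20 in the controls and 2.22 to 2.29 after 5-FU. Of the endothelial markers, PECAM1 and CDH5 were above background on all 18 arrays, VWF on 13 and KDR on none. The role of such genes in the 5-FU results below was not tested. The 75th percentile of the 5-FU arrays also stood higher against 6 spike-in probes than that of the controls, at -3.26 against -4.09 in Huh1 and at -3.03 against -4.02 in Huh7. Scaled on those spike-in probes, the median of all tested probes after 5-FU moved from -0.03 to 0.79 in Huh1 and from -0.05 to 0.94 in Huh7. Every 5-FU difference below is therefore relative to the bulk of the transcripts on the same array. Centring on each array's median instead moved the median over all probes from 0.00 to -0.17 after DSF in Huh1, and the normexp background correction moved it from -0.03 to -0.18 after 5-FU in Huh1.

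Against control, DSF raised 3 and lowered 5 of the 10 genes in Huh1, where 26.4% of all 15852 tested genes were called higher and 26.3% lower. In Huh7 it raised 3 and lowered 0, against 29.1% and 24.1% of all genes. 5-FU raised 2 and lowered 5 in Huh1, against 25.9% and 29.1% of all genes, and raised 4 and lowered 2 in Huh7, against 32.5% and 31.0%. The shares over all genes were large, and the counts of 10 are to be read against them. The median log2 difference of the 10 genes was -0.08 after DSF in Huh1, 0.13 after DSF in Huh7, -0.19 after 5-FU in Huh1 and 0.05 after 5-FU in Huh7, beside -0.02, 0.04, -0.03 and -0.01 for all genes. With spike-in scaling 3 were called higher and 1 was lower for DSF in Huh1, 1 higher and 0 lower after DSF in Huh7, and 9 higher and 0 lower after 5-FU in each line. With that scaling 22706 probes were called after 5-FU in Huh1, 98.4% of them higher, and 23997 in Huh7, 95.7% of them higher. After DSF 9500 probes were called in Huh1, 74.5% of them higher, and 9364 in Huh7, 34.6% of them higher.

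The arrays of treated and control cells were also compared directly. After DSF in Huh1 all 3 treated arrays lay above all 3 controls for 4 of the 10 genes and below them for 5, against 32.6% and 35.3% of all genes. After DSF in Huh7 they lay above for 7 and below for 0, against 37.0% and 32.4%. After 5-FU the counts were 4 above and 5 below in Huh1, against 29.0% and 33.6%, and 5 above and 2 below in Huh7, against 36.6% and 35.3%.

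**Figure D1:**
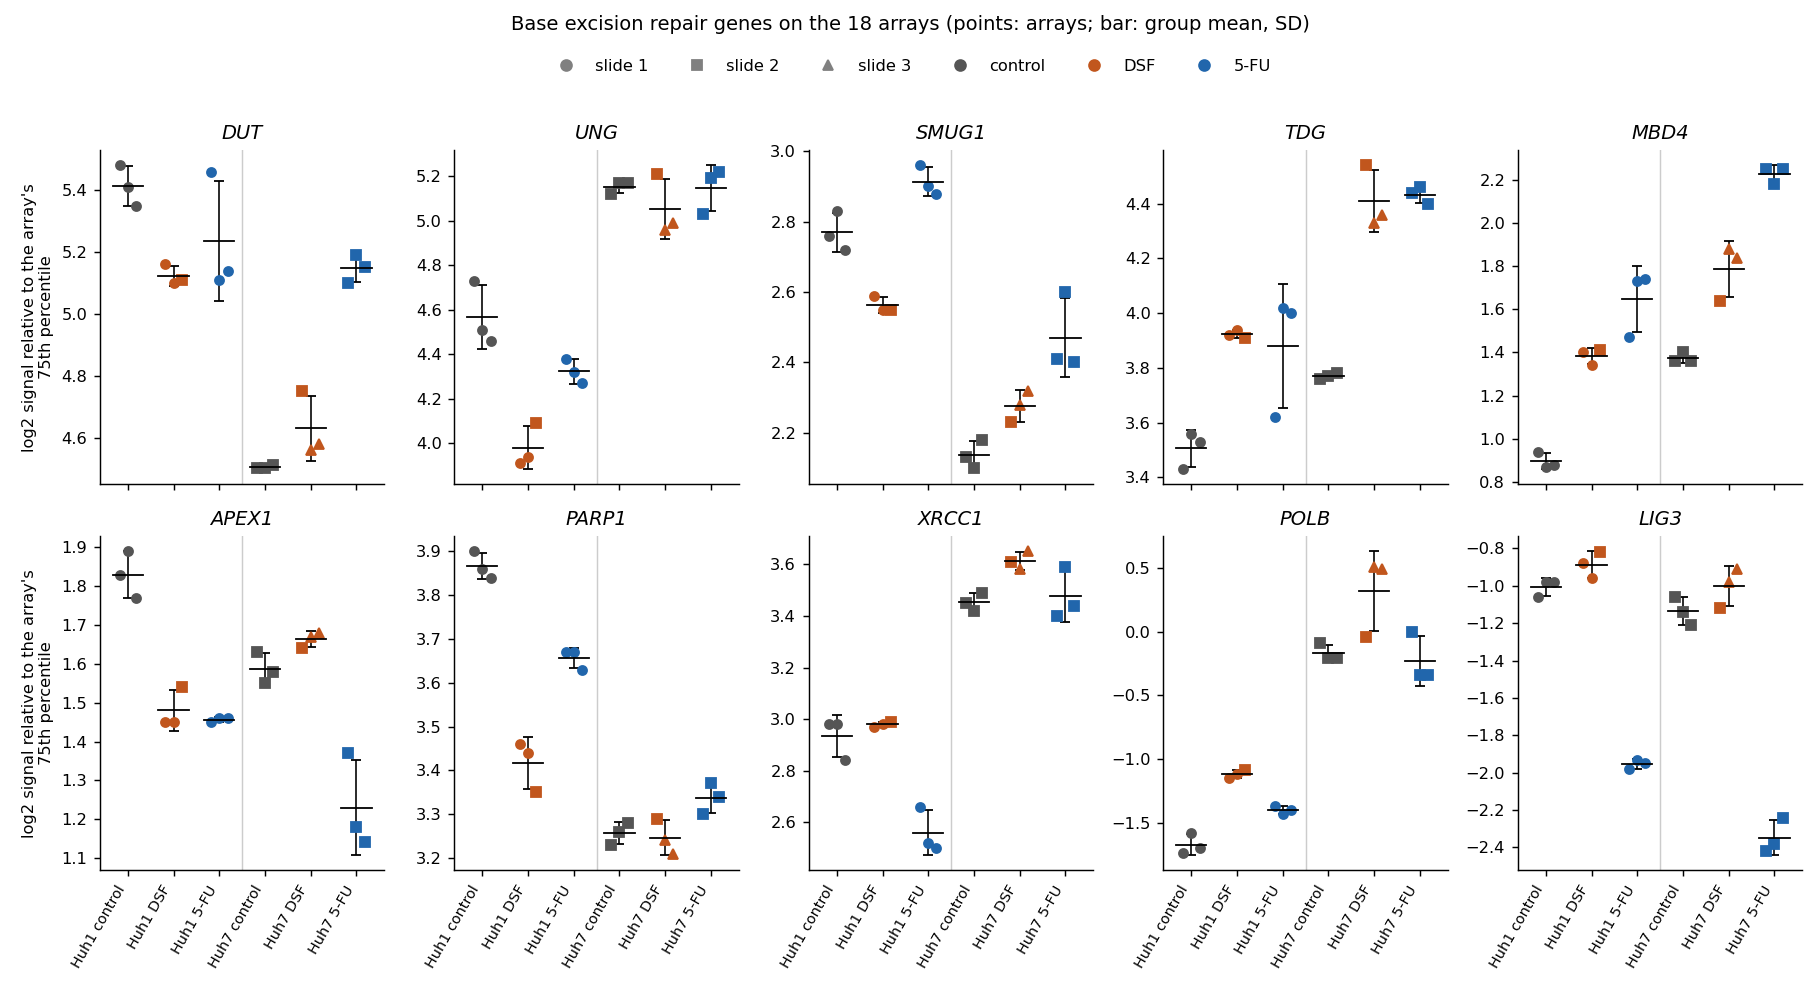
Level of the 10 genes on each array, as log2 signal relative to the 75th percentile of the array (vertical axis, a separate range for each gene), by group (horizontal axis). Points are arrays, their shape gives the slide, horizontal lines are group means and bars are SD with n = 3. LIG3 lay between -2.42 and -1.93 on the 6 arrays of 5-FU and between -1.21 and -0.82 on all others.

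**Figure D2:**
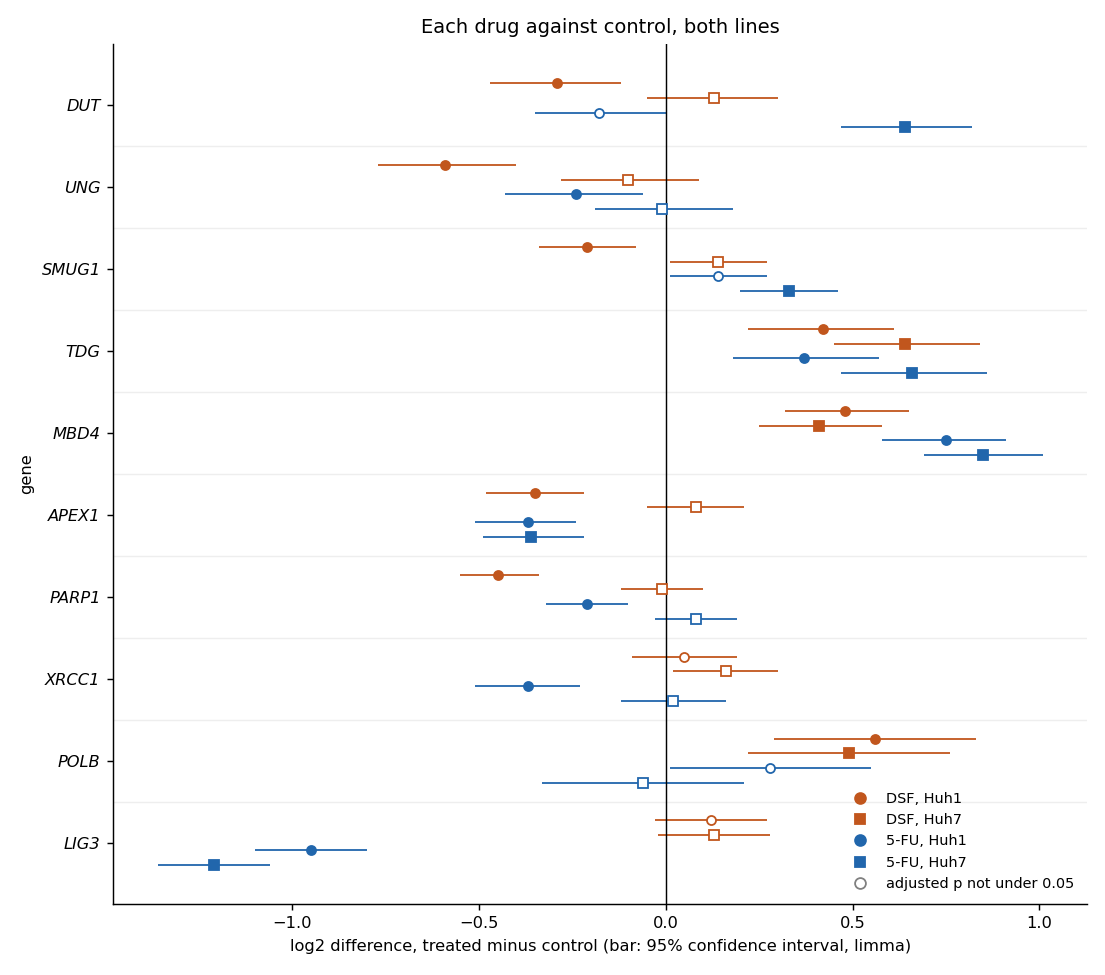
Log2 difference of each drug from control (horizontal axis) for the 10 genes (vertical axis), with 95% confidence intervals from limma. Filled points passed an adjusted p of 0.05, and TDG and MBD4 were the genes with 4 filled points above 0.

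DUT, which encodes dUTPase, differed most between the lines in its response to 5-FU. Its levels in Huh1 were 5.48, 5.41 and 5.35 on the control arrays, 5.16, 5.10 and 5.11 after DSF, and 5.46, 5.11 and 5.14 after 5-FU. In Huh7 they were 4.50, 4.50 and 4.51 on the control arrays, 4.75, 4.56 and 4.58 after DSF, and 5.10, 5.19 and 5.15 after 5-FU. The Huh7 controls were thus the lowest arrays of all, and the 5-FU arrays of Huh7 lay above every control and DSF array of that line. DUT rose after 5-FU in Huh7 by 0.64 (SE 0.08, limma adjusted p = 1.13e-05), and in Huh1 its difference was -0.18 (adjusted p = 0.0933), where replicate 1 lay among the controls. Without that array the Huh1 difference was -0.29 (adjusted p = 0.0021). The effect of 5-FU in Huh7 minus that in Huh1 was 0.82 (SE 0.12, adjusted p = 9.55e-05). After DSF, DUT fell by 0.29 on the log2 scale in Huh1 (adjusted p = 0.00992) and was 0.13 above control in Huh7 (adjusted p = 0.226), a difference between lines of 0.42 (adjusted p = 0.0111). The line difference was 0.25 with quantile scaling (adjusted p = 0.0935), and the Huh1 difference was -0.16 with spike-in scaling (adjusted p = 0.444). The dimmer DUT probe gave 0.76 after 5-FU in Huh7 (adjusted p = 9.08e-06), and after DSF in Huh7 it was called higher, at 0.39 (adjusted p = 0.00421), unlike the brighter probe.

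Genes of DNA replication moved beside DUT. Of 24 S phase genes, 20 were called higher and 2 lower after 5-FU in Huh7 (median 0.54), 8 higher and 8 lower after 5-FU in Huh1 (median 0.01), 2 higher and 9 lower after DSF in Huh1 (median -0.12), and 10 higher and 2 lower after DSF in Huh7 (median 0.13), where with spike-in scaling the medians were 1.53, 0.83, 0.01 and -0.05. After DSF the counts also moved with the scaling, to 2 higher and 15 lower for Huh1 and to 4 and 2 for Huh7 with median scaling, to 5 and 3 in Huh7 with quantile scaling, and to 2 and 3 in Huh1 and 1 and 2 in Huh7 with spike-in scaling. CDC6, which loads the replicative helicase, rose by 0.86 in Huh1 and 2.08 in Huh7 after 5-FU. TYMS, the thymidylate synthase that 5-FU metabolites block, was 0.58 higher after 5-FU in Huh7 (adjusted p = 4.86e-06) and fell by 0.49 on the log2 scale after DSF in Huh1 (adjusted p = 4.2e-05). Whether a shift in cell cycle phase has a part in the DUT values was not tested.

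UNG encodes the main uracil-DNA glycosylase. Its levels in Huh1 were 4.73, 4.51 and 4.46 on the control arrays, 3.91, 3.94 and 4.09 after DSF, and 4.38, 4.32 and 4.27 after 5-FU, so that the 3 groups did not overlap and DSF was lowest. In Huh7 the controls read 5.12, 5.17 and 5.17, the DSF arrays 5.21, 4.96 and 4.99, and the 5-FU arrays 5.03, 5.19 and 5.22, and these groups overlapped. UNG fell by 0.59 on the log2 scale after DSF in Huh1 (SE 0.09, adjusted p = 7.67e-05), and its difference in Huh7 was -0.10 (95% interval -0.28 to 0.09, adjusted p = 0.368). The effect of DSF in Huh7 minus that in Huh1 was 0.49 (SE 0.12, adjusted p = 0.0059). After 5-FU the Huh1 difference was -0.24 (adjusted p = 0.0321). That call was lost without Huh1 control replicate 1 (-0.16, adjusted p = 0.145) or without 5-FU replicate 2 or 3 (adjusted p = 0.0747 and 0.1), with quantile scaling (-0.12, adjusted p = 0.28) and with only the compared groups in the fit (adjusted p = 0.0847), and the difference was 0.58 with spike-in scaling. The only probe of UNG matches an accession of 1 transcript, and its position in the gene was not examined. Whether it reads the nuclear form of the enzyme, the mitochondrial form or both is not known here.

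SMUG1, a glycosylase that takes uracil and 5-hydroxymethyluracil from DNA, had 2 probes of the same accession that disagreed between the lines. Its brighter probe read 2.72 to 2.83 in the Huh1 controls and 2.10 to 2.18 in the Huh7 controls, a log2 difference of -0.63 (adjusted p = 2.34e-07). Its dimmer probe read -0.66 to -0.57 in the Huh1 controls and 0.08 to 0.12 in the Huh7 controls, a difference of 0.71 (adjusted p = 8.84e-08). The baseline order of the lines therefore depends on the probe, and the mean over both probes was 0.04 (adjusted p = 0.497). After 5-FU in Huh7 both probes were called higher, the brighter at 0.33 (adjusted p = 0.000292) and the dimmer at 0.65 (adjusted p = 5.77e-07). In Huh1 the brighter probe gave 0.14 (adjusted p = 0.0661) and the dimmer 0.45 (adjusted p = 3.96e-05). After DSF in Huh1 both were called lower, at -0.21 and -0.18 (adjusted p = 0.0118 and 0.0311). The call of the brighter probe was lost without Huh1 control replicate 2 (-0.18, adjusted p = 0.0535) and with spike-in scaling (-0.07, adjusted p = 0.678).

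**Figure D3:**
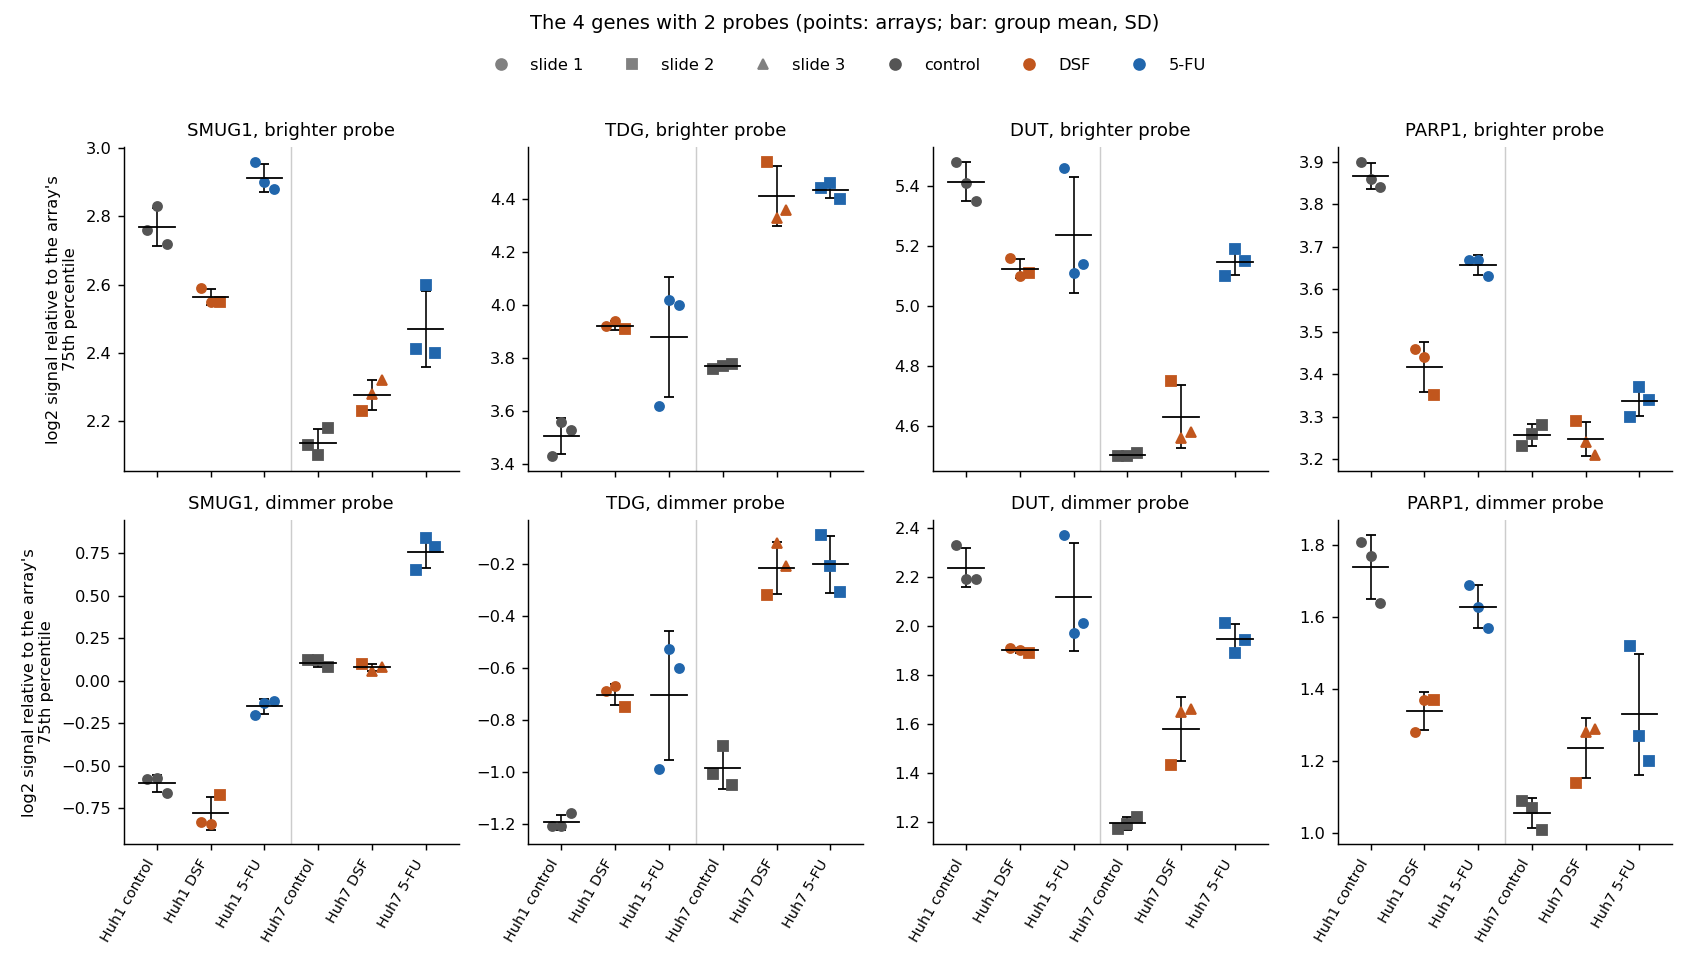
Level of both probes of SMUG1, TDG, DUT and PARP1 on each array, as log2 signal relative to the 75th percentile of the array (vertical axis, a separate range for each panel), by group (horizontal axis). Points are arrays, with group means and SD at n = 3, and the shape gives the slide. The probes of TDG, DUT and PARP1 ordered the control groups of the lines alike, and those of SMUG1 did not.

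TDG and MBD4 encode the glycosylases that act on a thymine or uracil opposite guanine, and both rose after both drugs in both lines. TDG read 3.43, 3.56 and 3.53 in the Huh1 controls, 3.92, 3.94 and 3.91 after DSF, and 3.62, 4.02 and 4.0 after 5-FU. In Huh7 it read 3.76, 3.77 and 3.78 in the controls, 4.54, 4.33 and 4.36 after DSF, and 4.44, 4.46 and 4.40 after 5-FU. No treated array overlapped the controls of its line. TDG rose by 0.42 after DSF in Huh1 (SE 0.09, adjusted p = 0.00176), by 0.64 after DSF in Huh7 (SE 0.09, adjusted p = 5.68e-05), by 0.37 after 5-FU in Huh1 (SE 0.09, adjusted p = 0.00362) and by 0.66 after 5-FU in Huh7 (SE 0.09, adjusted p = 2.11e-05). The dimmer probe gave 0.49, 0.77, 0.49 and 0.78 in the same order, all called higher. Between the drugs TDG differed by 0.04 in Huh1 (95% interval -0.15 to 0.24) and by -0.02 in Huh7 (-0.22 to 0.17). With median scaling the Huh1 DSF difference was 0.25 (adjusted p = 0.0919), and with only the compared groups in the fit the Huh1 5-FU difference had an adjusted p of 0.0623.

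MBD4, whose product also binds methylated CpG, read 0.94, 0.87 and 0.88 in the Huh1 controls, 1.40, 1.34 and 1.41 after DSF, and 1.47, 1.73 and 1.74 after 5-FU. In Huh7 it read 1.36, 1.40 and 1.36 in the controls, 1.64, 1.88 and 1.84 after DSF, and 2.25, 2.18 and 2.25 after 5-FU. In each line the 3 groups did not overlap, with control lowest and 5-FU highest. MBD4 rose by 0.48 after DSF in Huh1 and by 0.41 in Huh7 (SE 0.08 each, adjusted p = 0.000147 and 0.00055), and by 0.75 and 0.85 after 5-FU (SE 0.08 each, adjusted p = 3.08e-06 and 3.6e-07). Its rise after 5-FU was 1.68-fold in Huh1 and 1.80-fold in Huh7. DSF stood below 5-FU by a log2 difference of -0.26 in Huh1 (adjusted p = 0.0106) and of -0.44 in Huh7 (adjusted p = 0.000214), and the Huh1 call was lost without 5-FU replicate 2 or 3 (adjusted p = 0.0503 and 0.0513). On slide 2, which held all Huh7 controls, all Huh7 5-FU arrays and Huh7 DSF replicate 1, the DSF difference of MBD4 was 0.27 (adjusted p = 0.0619) and that of TDG was 0.77 (adjusted p = 0.000877). With spike-in scaling the Huh7 DSF difference of MBD4 was 0.24 (adjusted p = 0.162).

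The bases just upstream of the starts of TDG and MBD4 are shown because these genes rose together. They are the 250 bases before the start in RefSeq (GRCh38.p14), 5′ to 3′ on the gene's strand, at chr12:103965622-103965871 (plus strand) for TDG and at chr3:129439949-129440198 (minus strand) for MBD4. Capitals mark matches on either strand to 1 of 5 motifs searched.
TDG: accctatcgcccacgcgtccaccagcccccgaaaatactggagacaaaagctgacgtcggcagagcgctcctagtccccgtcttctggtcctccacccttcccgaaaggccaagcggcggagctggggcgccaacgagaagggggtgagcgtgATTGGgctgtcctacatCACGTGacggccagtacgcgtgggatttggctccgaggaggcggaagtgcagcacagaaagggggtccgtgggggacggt
MBD4: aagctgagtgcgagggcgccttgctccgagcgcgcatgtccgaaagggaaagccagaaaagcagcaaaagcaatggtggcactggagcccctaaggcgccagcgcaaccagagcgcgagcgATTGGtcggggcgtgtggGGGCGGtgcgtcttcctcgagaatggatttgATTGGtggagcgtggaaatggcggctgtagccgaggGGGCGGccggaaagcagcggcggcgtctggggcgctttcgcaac
The motifs were E2F (TTTCGCGC or TTTGGCGC), NFY (CCAAT), the GC box (GGGCGG), CRE (TGACGTCA) and the E-box (CACGTG), and none of the matches printed overlap. TDG held 1 NFY match and 1 E-box, and MBD4 held 2 NFY matches and 2 GC boxes. Of 35116 such RefSeq windows, 32.0% held an NFY match, 42.6% a GC box, 6.34% an E-box, 1.65% a CRE and 0.968% an E2F match. Of the 10 genes 8 had 12 windows that were examined, and no window was examined for SMUG1 and POLB. NFY was matched in 5 of these genes, the GC box in 6, the E-box in 4, E2F in 1 (DUT), and CRE in 0. Counted by window, as the shares are, NFY was matched in 5 of the 12. The GC box was matched in 9 windows, the E-box in 4, E2F in 1 and CRE in 0. A match describes letters and not a binding site.

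APEX1, which encodes the AP endonuclease that cuts at the empty site, fell after 5-FU in both lines and after DSF in Huh1. Its levels in Huh1 were 1.77 to 1.89 on the control arrays, 1.45 to 1.54 after DSF and 1.45 to 1.46 after 5-FU. In Huh7 they were 1.55 to 1.63, 1.64 to 1.68 and 1.14 to 1.37 in the same order. The 5-FU arrays lay below the controls in both lines without overlap, by log2 differences of -0.37 in Huh1 (adjusted p = 0.000201) and of -0.36 in Huh7 (adjusted p = 0.000195), and these were 0.45 and 0.63 with spike-in scaling. After DSF the difference was -0.35 in Huh1 (adjusted p = 0.000353) and 0.08 in Huh7 (95% interval -0.05 to 0.21, adjusted p = 0.304), the Huh1 value being -0.22 with spike-in scaling (adjusted p = 0.28), and the line difference, Huh7 less Huh1, was 0.43 (SE 0.09, adjusted p = 0.00145).

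PARP1, whose product senses strand breaks and marks them with poly(ADP-ribose), was lowered by DSF in Huh1. Its levels there were 3.90, 3.86 and 3.84 on the control arrays, 3.46, 3.44 and 3.35 after DSF, and 3.67, 3.67 and 3.63 after 5-FU. In Huh7 they were 3.23, 3.26 and 3.28 on the control arrays, 3.29, 3.24 and 3.21 after DSF, and 3.30, 3.37 and 3.34 after 5-FU. The Huh1 groups did not overlap, and in Huh7 the DSF arrays overlapped the controls. PARP1 fell by 0.45 on the log2 scale after DSF in Huh1 (SE 0.05, adjusted p = 6.18e-06) and by 0.21 after 5-FU (SE 0.05, adjusted p = 0.00296). With spike-in scaling the DSF difference was -0.31 (adjusted p = 0.0568). In Huh7 the differences were -0.01 (95% interval -0.12 to 0.10) and 0.08 (-0.03 to 0.19). The line difference, Huh7 less Huh1, was 0.44 for DSF (SE 0.07, adjusted p = 0.000248) and 0.29 for 5-FU (SE 0.07, adjusted p = 0.00499). The dimmer probe was called higher after 5-FU in Huh7, at 0.27 (adjusted p = 0.0103), and was at -0.11 after 5-FU in Huh1 (adjusted p = 0.276).

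XRCC1 encodes the scaffold that brings polymerase and ligase to a break. It read 2.84 to 2.98 in the Huh1 controls, 2.97 to 2.99 after DSF and 2.5 to 2.66 after 5-FU, and in Huh7 3.42 to 3.49, 3.58 to 3.65 and 3.40 to 3.59. Only the 5-FU arrays of Huh1 lay below their controls. XRCC1 fell there by 0.37 on the log2 scale (SE 0.07, adjusted p = 0.000314), and in Huh7 the difference was 0.02 (95% interval -0.12 to 0.16). The effect of 5-FU in Huh7 minus that in Huh1 was 0.39 (SE 0.09, adjusted p = 0.00423). After DSF in Huh7 the arrays did not overlap the controls, but the difference of 0.16 did not pass (adjusted p = 0.062). It passed without Huh1 5-FU replicate 1 (adjusted p = 0.0426) or Huh7 5-FU replicate 2 (adjusted p = 0.0425).

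POLB, the gene of DNA polymerase beta, which fills the gap and trims the sugar remnant, had the widest range of the 10 genes, 2.00 over the 6 group means. Its levels in Huh1 were -1.74, -1.58 and -1.70 on the control arrays, -1.15, -1.12 and -1.09 after DSF, and -1.37, -1.43 and -1.40 after 5-FU. In Huh7 they were -0.09, -0.21 and -0.21 on the control arrays, -0.04, 0.51 and 0.49 after DSF, and 0.00, -0.34 and -0.34 after 5-FU. Every Huh7 array lay above every Huh1 array. POLB rose by 0.56 after DSF in Huh1 (SE 0.13, adjusted p = 0.00234), where the groups did not overlap. In Huh7 the difference was 0.49 (SE 0.13, adjusted p = 0.00583), and it rested on replicates 2 and 3, the arrays that were alone on slide 3 and had 70.6% and 71.1% of probes above background, against 59.9% to 68.7% elsewhere. On slide 2 it was 0.13 (adjusted p = 0.496), with spike-in scaling 0.31 (adjusted p = 0.127) and with only the compared groups in the fit it had an adjusted p of 0.0521. After 5-FU the differences were 0.28 in Huh1 (adjusted p = 0.0858) and, for Huh7, -0.06 (adjusted p = 0.728). The Huh1 value passed without Huh7 DSF replicate 1, at an adjusted p of 0.0136.

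LIG3, which encodes the ligase that seals the nick together with XRCC1 and is also the ligase of mitochondria, gave the largest drug difference among the 10 genes. Its levels in Huh1 were -1.06, -0.98 and -0.98 on the control arrays, -0.88, -0.96 and -0.82 after DSF, and -1.98, -1.93 and -1.95 after 5-FU. In Huh7 they were -1.06, -1.14 and -1.21 on the control arrays, -1.12, -0.98 and -0.91 after DSF, and -2.42, -2.38 and -2.24 after 5-FU. The 6 arrays of 5-FU lay below the other 12 without overlap. LIG3 fell by 0.95 on the log2 scale after 5-FU in Huh1 (SE 0.07, adjusted p = 1.8e-07) and by 1.21 in Huh7 (SE 0.07, adjusted p = 4.76e-09), which is 1.93-fold and 2.32-fold lower. After DSF the differences were 0.12 (95% interval -0.03 to 0.27) and 0.13 (-0.02 to 0.28), and neither passed, although the Huh7 difference did without Huh7 DSF replicate 1 (0.19, adjusted p = 0.0374). With spike-in scaling the 5-FU differences were -0.12 in Huh1 (adjusted p = 0.355) and -0.23 in Huh7 (adjusted p = 0.0919), against 0.79 and 0.94 for the median probe. A change of scale moves all probes of an array alike, so the distance of LIG3 below the median probe is the same on both scales. A fall against the spike-in probes was not called.

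The window upstream of LIG3 is shown for comparison with those of TDG and MBD4, which moved the other way after 5-FU. It is the 250 bases before its start in RefSeq (GRCh38.p14) at chr17:34980262-34980511 (plus strand), with capitals as above.
LIG3: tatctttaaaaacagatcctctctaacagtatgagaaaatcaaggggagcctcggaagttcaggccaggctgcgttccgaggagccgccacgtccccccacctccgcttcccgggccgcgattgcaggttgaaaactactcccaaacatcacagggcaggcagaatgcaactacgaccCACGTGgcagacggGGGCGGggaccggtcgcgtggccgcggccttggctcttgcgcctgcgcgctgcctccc
It held 1 E-box and 1 GC box and no NFY match. Among the other genes with a window, APEX1, which fell after 5-FU in both lines, held an NFY match. So did XRCC1 and UNG, which fell in Huh1. PARP1, which fell in Huh1, and DUT, which rose in Huh7, held none. With spike-in scaling APEX1, XRCC1, UNG and PARP1 were higher after 5-FU in both lines. A link between these matches and the direction after 5-FU was not tested.

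**Figure D4:**
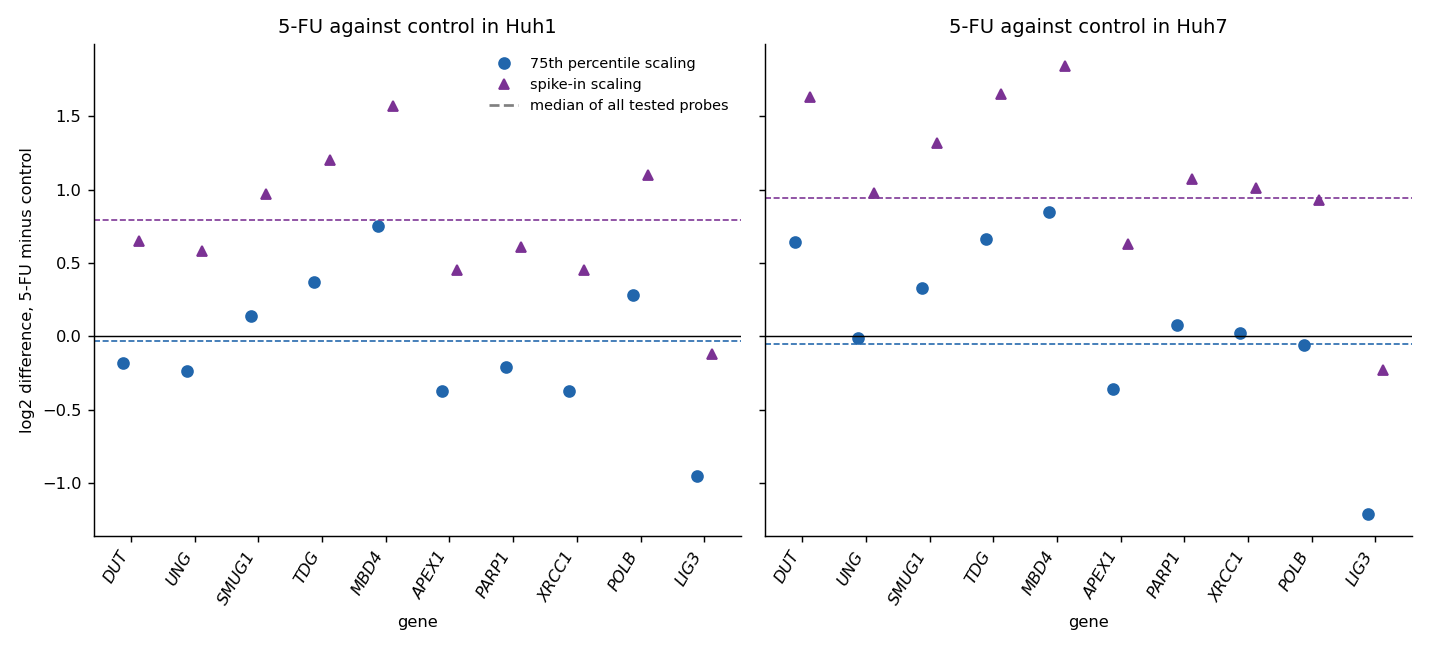
Log2 difference of 5-FU from control (vertical axis) for the 10 genes (horizontal axis), with scaling on the 75th percentile (circles) and on 6 spike-in probes (triangles). Dashed lines are the medians over all tested probes, -0.03 and 0.79 in Huh1 and -0.05 and 0.94 in Huh7. The change of scale moves genes and medians alike, so the distance of a gene from its line is the same on both. LIG3 was the gene farthest below the line.

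The drugs were then compared with each other. They share the controls of their line, so only the direct contrast of DSF with 5-FU is given. In Huh1, 2 of the 10 genes were higher and 4 lower after DSF than after 5-FU, against 30.5% and 25.3% of all genes, and in Huh7 3 were higher and 3 lower, against 34.5% and 30.7%. LIG3 was the widest contrast, 1.07 higher after DSF in Huh1 (adjusted p = 4e-08) and 1.34 higher in Huh7 (adjusted p = 2.07e-09), although the Huh7 value was 0.18 with spike-in scaling (adjusted p = 0.164). XRCC1 was also higher in Huh1 (0.42, adjusted p = 0.000114), APEX1 in Huh7 (0.44, adjusted p = 3.08e-05) and POLB in Huh7 (0.55, adjusted p = 0.00188, and on slide 2 0.19, adjusted p = 0.251). MBD4 and SMUG1 were lower after DSF than after 5-FU in both lines, with UNG (-0.35) and PARP1 (-0.24) in Huh1 and DUT (-0.52) in Huh7. The Huh7 call of SMUG1 was lost without Huh7 5-FU replicate 2 (-0.13, adjusted p = 0.0671) or with only the compared groups in the fit (adjusted p = 0.129), as was the Huh1 call of MBD4 in that fit (adjusted p = 0.0541). With spike-in scaling 1 gene was higher and 8 were lower in Huh1, and in Huh7 0 and 9. These counts are to be read against all probes with that scaling, whose median was -0.61 in Huh1 and -1.04 in Huh7. There 20107 probes were called in Huh1, 6.87% of them higher, and 25022 in Huh7, 3.3% of them higher.

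The responses of the lines were also compared, and the counts of 10 are to be read against the shares over all genes. The effect of DSF in Huh7 exceeded that in Huh1 for 5 of the 10 genes, UNG, PARP1, APEX1, DUT and SMUG1 (0.34, adjusted p = 0.00552), and fell short for 0, against 24.3% and 21.9% of all genes. The dimmer SMUG1 probe gave 0.15 (adjusted p = 0.183), and the call of its brighter probe was lost with slide as a block. The effect of 5-FU in Huh7 exceeded that in Huh1 for DUT, XRCC1 and PARP1 and fell short for 0, against 23.7% and 19.9%. LIG3 narrowly missed the threshold (-0.26, adjusted p = 0.0511) and was called lower with quantile scaling (-0.28, adjusted p = 0.0291) and with the mean over a gene's probes. The PARP1 call was lost with spike-in scaling (adjusted p = 0.0669). All 5 genes of the DSF contrast were called lower in Huh1 and were not called in Huh7. The DSF contrast had 4 calls when Huh7 DSF was taken from slide 2 only and 0 with spike-in scaling, which put the median of all probes at -0.25. The 5-FU contrast had 5 calls without Huh7 DSF replicate 1 and with slide as a block, POLB (-0.33, adjusted p = 0.0385 and 0.0487) and LIG3 (-0.26, adjusted p = 0.0308 and 0.0328) being called lower there. Of 16 mitosis genes, 12 were lower and 0 higher after DSF in Huh1 (median -0.40) and 9 lower and 0 higher in Huh7 (median -0.25), with 4 lower in Huh1 under spike-in scaling (median -0.27) and 5 lower in Huh7 with slide as a block (median -0.14). Of 24 S phase genes the difference of the DSF effect was called higher for 13 and lower for 2. The role of proliferation in these line differences was not tested.

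**Figure D5:**
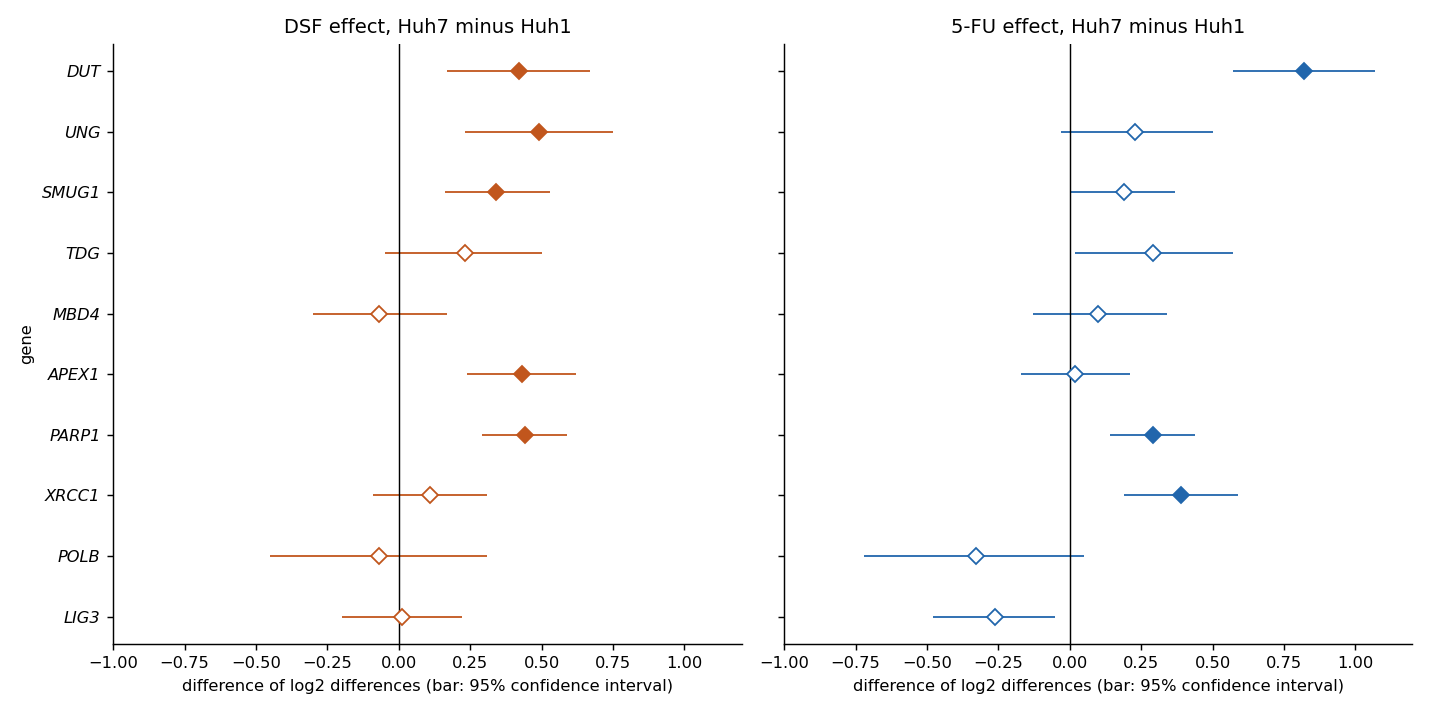
Effect in Huh7 minus effect in Huh1 (horizontal axis, difference of log2 differences with 95% confidence interval from limma) for the 10 genes (vertical axis), for DSF at left and 5-FU at right. Filled points passed an adjusted p of 0.05, 5 at left and 3 at right, all above 0.

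Before treatment, Huh7 stood above Huh1 for 5 of the 10 genes and below for 4, against 39.3% and 38.6% of all genes. The controls of the lines lay on different slides, so line and slide cannot be told apart in this contrast alone. POLB was 1.51 higher in Huh7 (SE 0.13, adjusted p = 5.31e-08), 2.84-fold. UNG (0.59), XRCC1 (0.52), MBD4 (0.47) and TDG (0.26, adjusted p = 0.0192) were also higher, but the call of TDG was lost without Huh1 control replicate 1 (adjusted p = 0.0682), with median scaling (0.10, adjusted p = 0.434), with normexp (0.19, adjusted p = 0.0655), with spike-in scaling (0.33, adjusted p = 0.0807) and with slide as a block (0.29, adjusted p = 0.153). DUT was lower in Huh7 at -0.91 (SE 0.08, adjusted p = 1.29e-07) with SMUG1 (-0.63 by its brighter probe), PARP1 (-0.61) and APEX1 (-0.24, and -0.17 with spike-in scaling, adjusted p = 0.321). LIG3 was not called (-0.13, adjusted p = 0.116). In Huh7 the controls of DUT were far below those of Huh1, and after 5-FU its levels were 5.10 to 5.19, beside 5.11 to 5.46 on the 5-FU arrays of Huh1.

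The genes most like POLB and LIG3 over the 18 arrays were listed by the smallest root mean square difference of log2 levels after each gene's mean was subtracted. Those of POLB included NECAP1 (0.169), ARHGAP39 (0.172), PISD (0.186) and BOD1L1 (0.188), where the median over genes was 0.899. Those of LIG3 were EIF3F (0.105), RPL12 (0.126), H2BC18 (0.13), NBAS (0.132) and TP53BP1 (0.143), where the median was 0.783. POLB and LIG3 were taken for their wide range, so the lists describe these arrays only.

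Other genes of the pathway are given from lists. Their counts are to be read against the shares over all genes above. Those with spike-in scaling are to be read against the probes called with that scaling. Of 7 other DNA glycosylases, 0 were higher and 4 lower after DSF in Huh1 (median -0.27), 0 and 3 after DSF in Huh7 (median -0.12), 3 and 2 after 5-FU in Huh1 (median 0.09) and 3 and 2 after 5-FU in Huh7 (median -0.10), the last 2 medians being 0.91 and 0.88 with spike-in scaling. OGG1, which removes 8-oxoguanine, rose after 5-FU by 0.79 in Huh1 and 0.74 in Huh7 (adjusted p = 5.37e-07 and 3.82e-07), and MUTYH, its partner against the same lesion, by 0.30 and 0.18 (adjusted p = 0.000636 and 0.0154). NTHL1, which takes oxidized pyrimidines, fell after 5-FU by 0.19 and 0.74 (adjusted p = 0.0461 and 1.12e-06). MPG, the alkyladenine glycosylase, fell after DSF by 0.55 and 0.23 (adjusted p = 7.44e-06 and 0.00867).

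Of 10 tested genes of single-strand break and end processing, 1 was higher and 2 lower after DSF in each line, 1 and 4 after 5-FU in Huh1, and 3 and 3 after 5-FU in Huh7. As LIG3 did, TDP1, which clears blocked 3′ ends, fell after 5-FU, by 1.06 in Huh1 and 1.28 in Huh7 (adjusted p = 6.6e-07 and 3.98e-08), and after DSF by 0.39 and 0.25 (adjusted p = 0.00295 and 0.0392). HMGB1, a chromatin protein, fell after 5-FU by 0.89 and 0.50. With spike-in scaling 8 of the 10 were higher and 0 lower after 5-FU in each line. Of 17 genes of long-patch synthesis and ligation, 4 were higher and 7 lower with DSF in Huh1, 3 and 4 after DSF in Huh7, 7 and 3 after 5-FU in Huh1, and 10 and 2 after 5-FU in Huh7. RFC2, RFC3 and RFC4, subunits of the loader of the sliding clamp, rose after 5-FU in both lines, between 0.42 and 0.72. RFC4 fell after DSF by 0.29 in Huh1 and 0.25 in Huh7, while POLE3 and POLE4, accessory subunits of a replicative polymerase, rose by 0.36 and 0.48 in Huh1 and by 0.40 and 0.57 in Huh7. With spike-in scaling all 17 were higher after 5-FU in each line, and after DSF 4 were higher and 0 lower for Huh1, and for Huh7 the counts were 0 and 3. With slide as a block 3 were higher and 0 lower after DSF in Huh7, and with median scaling 4 and 2 after 5-FU in Huh1.

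Of 15 genes of uracil sources and thymidylate supply, 0 were higher and 5 lower with DSF in Huh1, 3 and 3 after DSF in Huh7, 2 and 2 after 5-FU in Huh1, and 6 and 3 after 5-FU in Huh7. SHMT2, the mitochondrial serine hydroxymethyltransferase, fell after 5-FU by 1.12 and 1.05, and RRM2, a subunit of ribonucleotide reductase, rose by 0.29 and 1.16. SHMT1, the cytosolic form that feeds thymidylate synthesis, fell after DSF by 0.86 and 0.71. TYMP, thymidine phosphorylase, fell after 5-FU by 0.83 and 0.86. With spike-in scaling 13 of the 15 were higher and 0 lower after 5-FU in Huh1 and 12 and 0 in Huh7, and after DSF 0 and 2 in Huh1 and 0 and 4 in Huh7, while median scaling gave 0 and 8 after DSF in Huh1. Of 8 mismatch repair genes, 1 was higher and 3 lower with DSF in Huh1, 0 and 2 after DSF in Huh7, 3 and 3 after 5-FU in Huh1, and 2 and 3 after 5-FU in Huh7. EXO1, the exonuclease of the pathway, rose after 5-FU by 0.70 and 1.15, and MSH3 fell by 0.55 and 0.75. With spike-in scaling 8 were higher and 0 lower after 5-FU in Huh1 and 7 and 0 in Huh7, and 0 were called after DSF in Huh1.

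Of 9 tested genes of cytosine deaminases and demethylation, 2 were higher and 1 lower with DSF in Huh1, 2 and 5 after DSF in Huh7, 5 and 0 after 5-FU in Huh1, and 5 and 1 after 5-FU in Huh7. APOBEC3B, a cytosine deaminase that makes uracil in DNA, rose after 5-FU by 0.81 in Huh1 (adjusted p = 0.00113) and by 1.76 in Huh7 (adjusted p = 6.35e-07), and APOBEC3F by 0.57 and 1.30. GADD45A, a stress gene linked to demethylation through TDG, rose after both drugs, by 1.90 and 0.93 after DSF and by 1.52 and 1.02 after 5-FU. TET1, which oxidizes methylcytosine to bases that TDG removes, fell after DSF by 0.80 and 1.12. With spike-in scaling 8 were higher and 0 lower after 5-FU in each line, and with the normexp background correction 3 were higher and 2 lower after 5-FU in Huh1. Of 16 mitosis genes, 15 were lower and 0 higher after 5-FU in Huh1 and 11 lower and 1 higher in Huh7, where spike-in scaling called 3 higher and 5 lower for Huh1 and, for Huh7, 13 higher and 0 lower.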

How the data were processed

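Labeled cRNA from EpCAM+ sorted cells was hybridized by the authors to 18 one-color Agilent arrays, and the scans were read with Agilent Feature Extraction (10.7.1.1 in the file headers). The authors deposited spot intensity after background subtraction, on a linear scale and not scaled between arrays, and a table of intensity divided by each array's 75th percentile, used here as an alternative. There 100% of probes per array lay within 0.05 log2 of the values computed here.

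Here log2 intensity of a probe's unflagged spots was averaged, and the array's 75th percentile was subtracted. Of 42405 probes 78 had no unflagged spot on some array and were left out. A probe entered the test when every array of some group had it well above background, and these 29894 probes went into a single limma fit of 6 groups (limma 3.58.1, R 4.3.3), with Benjamini-Hochberg adjustment over all of them and a threshold of 0.05. The methods' Mann-Whitney U test cannot give an exact p below 0.1 with 3 arrays against 3. Gene names came from RefSeq accessions through a table of GRCh38.p14, while the array design is of GRCh37, so names alone were joined: of 27134 probes with an accession, 25771 received a symbol. Tables and plots were made with Python 3.11.15, pandas 2.3.3, numpy 2.4.6 and matplotlib 3.10.9. Promoter windows were read from RefSeq (GRCh38.p14).

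The genes and lists were chosen with earlier results of these data known. The text names all 10 genes, from each list at most 3 genes per drug called in the same direction in both lines, ranked by mean change, and for the 2 genes of widest range the 5 most alike in profile, except that 2 genes the rule gives are not reported here. TYMS, CD68, PECAM1, CDH5, VWF, KDR, LUM and COL1A1 were added after values were seen, and the printed promoter windows were chosen in the same way. Groups followed the sample labels. Each array had 25341 to 30094 probes well above background, and the number of arrays limits the precision. The arrays lay on 3 slides: slide 1 held Huh1 control and 5-FU and Huh1 DSF replicates 1 and 2, slide 2 held Huh1 DSF replicate 3, Huh7 control and 5-FU and Huh7 DSF replicate 1, and slide 3 held Huh7 DSF replicates 2 and 3. Leaving out Huh1 DSF replicate 3, which kept Huh1 to slide 1, gave 8 of the 10 genes called after DSF in Huh1, as over all arrays. The alternatives were background correction (normexp with an offset of 50 on median spot and background signals, in place of the mean signals that had been planned), scaling by quantiles, median or spike-in probes, filters, spread, slide, replicate block, probes and arrays left out. The use of the Huh7 DSF array of the shared slide alone was chosen after seeing the data. The fit was checked on simulated data.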

Additional observations from a re-analysis of the deposited data

Results flagged for a closer look

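Some drug effects differed between the lines by limma's interaction test, given as the log2 effect in Huh7 less the one in Huh1. For DSF the difference was 0.49 for UNG, 0.34 for SMUG1, 0.43 for APEX1, 0.42 for DUT and 0.44 for PARP1. The dimmer SMUG1 probe gave 0.15 and was not called. For 5-FU the difference was 0.82 for DUT, 0.39 for XRCC1 and 0.29 for PARP1, and that of PARP1 was not called with spike-in scaling (adjusted p = 0.0669). With spike-in scaling the DSF differences were 0.18 for UNG, 0.04 for SMUG1, 0.12 for APEX1, 0.11 for DUT and 0.13 for PARP1, and none of them was called.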

How the results depend on the processing

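Leaving out 1 array at a time gave 1620 values of the 10 genes over 9 contrasts, of which 1585 kept their direction and their side of the threshold, 8 lost a call, 15 gained one and 12 changed sign. The other 13 settings gave 1170 values, of which 1044 were kept, 36 lost a call, 37 gained one and 53 changed sign, 23 of these with spike-in scaling. Spike-in scaling subtracts 1 value from each array, so it moves all 10 genes of a contrast by the same amount. The cause of the other changes was not tested.

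The count of genes called after DSF in Huh7, 3 in the report, was 1 with spike-in scaling, with slide as a block and with the Huh7 DSF array of the shared slide only, a setting chosen after seeing the data in which the lone array is assumed to vary like the other groups. It was 5 with the mean over a gene's probes and 3 to 5 over the fits that left out 1 array (5 without Huh7 5-FU replicate 2). After DSF in Huh1 it was 4 with spike-in scaling. For the line difference it was 0 with spike-in scaling after DSF, and after 5-FU 5 with slide as a block and with the mean over a gene's probes, and 3 to 5 over the fits that left out 1 array.

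Of the 23 sign changes with spike-in scaling 8 were of values called in the report. The sign changed after 5-FU in Huh1 for UNG (0.58), APEX1 (0.45), DUT (0.65), XRCC1 (0.45) and PARP1 (0.61), and in Huh7 for UNG (0.98), APEX1 (0.63) and POLB (0.93). It changed for DSF against 5-FU in Huh1 for TDG (-0.65), APEX1 (-0.67), XRCC1 (-0.27) and POLB (-0.41), and in Huh7 for APEX1 (-0.72), XRCC1 (-1.02) and POLB (-0.62). It changed after DSF in Huh7 for SMUG1 (-0.04), APEX1 (-0.09), DUT (-0.05), XRCC1 (-0.02) and LIG3 (-0.04), and for the line difference after DSF for TDG (-0.08), XRCC1 (-0.20) and LIG3 (-0.30). The split of all called probes moved as well, from 46.1% to 98.4% higher after 5-FU in Huh1 and from 47.9% to 95.7% in Huh7, and to 29.4% and 35.1% with normexp, and to 35.7% in Huh1 with no filter on dim probes. After DSF in Huh1 it was 54.1%, against 74.5% with spike-in and 33% with median scaling, and in Huh7 58.5% against 34.6% with spike-in scaling. For DSF against 5-FU it was 58.2% in Huh1, against 6.87% with spike-in scaling, 40.7% with median scaling and 70.8% with normexp, and 58.8% in Huh7, against 3.3% with spike-in scaling. For the line difference it was 52.3% after DSF, against 17.1% with spike-in and 68.5% with median scaling, and 51.3% after 5-FU, against 67.1% with spike-in scaling.

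Of the other 30 sign changes 29 were of values called in neither setting, the exception being SMUG1 between the controls (-0.63 by its brighter probe). With normexp they were PARP1 after DSF in Huh7 (0.04), UNG after 5-FU in Huh7 (0.02), TDG for DSF against 5-FU in Huh1 (-0.02), and the DSF line difference of MBD4 (0.03) and POLB (0.02). With quantile scaling they were DUT after 5-FU in Huh1 (0.07), UNG after 5-FU in Huh7 (0.19), the DSF line difference of XRCC1 (-0.01) and POLB (0.01), and the 5-FU line difference of APEX1 (-0.01). With median scaling they were XRCC1 (-0.13) and LIG3 (-0.05) after DSF in Huh1, UNG after 5-FU in Huh7 (0.02), TDG (-0.11) and APEX1 (-0.13) for DSF against 5-FU in Huh1, and the DSF line difference of MBD4 (0.09) and POLB (0.08). With slide as a block they were UNG (0.06) and PARP1 (0.03) after DSF in Huh7, APEX1 for DSF against 5-FU in Huh1 (-0.01), UNG (0.07) and TDG (0.11) for the same in Huh7, and the DSF line difference of LIG3 (-0.07). On the shared slide only, UNG gave 0.06 and PARP1 0.03 after DSF in Huh7, UNG 0.07 and TDG 0.11 for DSF against 5-FU in Huh7, and LIG3 -0.11 for the DSF line difference. With the mean over probes, PARP1 gave 0.08 after DSF in Huh7 and SMUG1 0.04 between the controls.

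Over the fits that left out 1 array, values that changed sign ran from -0.03 to 0.01 for PARP1 after DSF in Huh7, from -0.04 to 0.05 for UNG and -0.04 to 0.06 for XRCC1 after 5-FU in Huh7, from -0.09 to 0.12 for TDG and -0.01 to 0.04 for APEX1 in DSF against 5-FU in Huh1, from -0.08 to 0.02 for TDG in the same in Huh7, from -0.16 to 0.11 for POLB and -0.03 to 0.07 for LIG3 in the DSF line difference, and from -0.05 to 0.06 for APEX1 in the 5-FU line difference.

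The replicate numbers did not pair the arrays: over the 18 pairs the correlation of deviations ran from -0.093 to 0.024, and 1 sample correlated best with its own number. With the replicate block none of 90 values changed its call, LIG3 after 5-FU being -0.95 in Huh1 and -1.21 in Huh7. Precision rests on 3 arrays per group.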
